A study of Mus musculus with 15 samples.

Results

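Nuclear genes of oxidative phosphorylation were followed in the colon tissue of 15 mice. They were chosen by name from the protein-coding genes of GENCODE release M21, the mouse gene catalogue, as every symbol that starts with Nduf, Uqcr or Atp5, every Cox symbol numbered 4 to 8, and Sdha, Sdhb, Sdhc, Sdhd, Uqcrfs1, Cyc1 and Cycs. The rule found 96 of the 55335 genes in the files. The rule uses names and no measured value. By complex they are 36 subunits and 8 assembly factors of complex I, 4 subunits of complex II, 9 of complex III, cytochrome c, 20 genes of complex IV and 18 of complex V. Here complex IV includes Ndufa4 and its relative Ndufa4l2, which were named as complex I genes but belong with cytochrome c oxidase, and Cox7a2l. The symbol Atp5o covers 2 Ensembl genes, of which 1 is a read-through locus listed at 0 in every mouse.

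Oxidative phosphorylation takes electrons from NADH at complex I and from succinate at complex II, passes them through complex III and the small carrier cytochrome c to complex IV, and uses the proton gradient so made to drive ATP synthesis at complex V. Most subunits are encoded in the nucleus and imported, while a few core subunits of every complex except complex II are encoded by the mitochondrial genome. In the colon, absorptive epithelial cells are rich in mitochondria and oxidise butyrate, a fatty acid made by gut bacteria. Neutrophils, which enter inflamed colon, rely mainly on glycolysis.

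The mice fall into 3 groups of 5, named here DSS_ICB_Fp, DSS_ICB and DSS. All 15 mice received DSS (dextran sulfate sodium), a polymer given to injure the lining of the colon. DSS_ICB mice also received immune checkpoint blockade, DSS_ICB_Fp mice received DSS, the blockade and a gavage of Faecalibacterium prausnitzii, a butyrate-producing gut bacterium, and DSS mice received DSS alone by their label. The labels name no strain, sex, age, antibody, control antibody or control gavage, so the agents cannot be told apart from the procedures of giving them, and every group carries DSS injury. Whole colon tissue was used, so a level is that of a mixture of cells, in which fewer cells of a type and less RNA per cell cannot be told apart.

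Expression was measured by RNA sequencing and is given as FPKM, the fragments of a gene scaled to the length of its transcript and to the size of the library. Depths were estimated from the steps between low values as 15.6 M to 25.3 M fragments per library. Between 13243 and 14336 genes per library reached 1 FPKM. Mouse 3 and mouse 5 of DSS_ICB stood apart, with median rank correlations to the other libraries of 0.725 and 0.864 against at least 0.922 for the rest. Absorptive colonocyte markers (14 genes) summed to 10458, 10058, 9968, 9255 and 9988 FPKM in the DSS_ICB_Fp mice, 9106, 7537, 712, 8017 and 5991 in the DSS_ICB mice and 7292, 12477, 10105, 12092 and 9409 in the DSS mice. These markers of the labelled tissue were abundant in 14 libraries, and the library of DSS_ICB mouse 3 held the fewest. Its 10 smooth muscle genes summed to 17617 FPKM, against 1332 to 5607 in the other libraries.

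Of the 96 genes, 92 reached 1 FPKM in at least 5 libraries and were tested together with every other gene that did so, 14385 in all. The 4 others are Cox6a2, the striated muscle isoform of subunit 6A, which reached at most 0.571 FPKM, Cox7b2 and Cox8c, both known from testis and listed at 0 in every mouse, and the read-through Atp5o locus. All members together made up 2.10 ± 0.138% of all FPKM in DSS_ICB_Fp mice, 1.87 ± 0.569% in DSS_ICB mice and 1.92 ± 0.0990% in DSS mice (SD, n = 5 each). All 96 together summed to 7508, 7713, 7779.8, 8984 and 7354 FPKM in the DSS_ICB_Fp mice, 7099, 8903, 5139, 9174 and 4886 FPKM in the DSS_ICB mice and 6764, 7548, 7067, 7475 and 7268 FPKM in the DSS mice. DSS_ICB_Fp mice lay near DSS mice or slightly above, and DSS_ICB mice covered a range that enclosed both other groups. The means were 7868 ± 646, 7040.2 ± 2018 and 7225 ± 318 FPKM in DSS_ICB_Fp, DSS_ICB and DSS mice (SD, n = 5 each).

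No gene of the set passed in any of the 3 comparisons. Changes are differences of log2(FPKM + 1) tested with limma, with Benjamini-Hochberg adjusted p-values over all genes tested and a threshold of 0.05. DSS_ICB against DSS, which asks what the blockade adds in DSS-treated mice, had 0 of 92 genes past the threshold, while 0.0209% of all genes tested passed. At an unadjusted p under 0.05 it had 0 genes higher and 2 lower, where 7.08% of all genes were higher and 4.22% lower. DSS_ICB_Fp against DSS_ICB, which asks what the bacterium adds to the blockade, had 0 of 92 genes past the threshold, with 0.132% of all genes tested past it, 0.00695% higher and 0.125% lower. At an unadjusted p under 0.05, 11 were higher and 3 lower, where 9.34% of all genes were higher and 12.4% lower. For DSS_ICB_Fp against DSS the count was 0 of 92 at both thresholds, with 0% of all genes past the adjusted one and, at the unadjusted one, 0.591% higher and 0.82% lower (1.41% in all). Groups did not overlap for 0 of the 92 genes in DSS_ICB against DSS, where 1.21% of all genes were higher and 0.327% lower without overlap. In DSS_ICB_Fp against DSS_ICB they did not overlap for 1 gene, which was higher, where the shares of all genes were 0.945% and 2.46%, and in DSS_ICB_Fp against DSS for 0 genes, where both shares were 0.195%. Any pair of these comparisons shares the mice of 1 group, so their values are given side by side and not as separate evidence.

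The median log2 change of the 92 genes was 0.0023 in DSS_ICB against DSS, with 46 genes above 0 and 46 below, and 0.018 over all genes. It was 0.090 in DSS_ICB_Fp against DSS_ICB, with 61 above and 31 below 0, and -0.040 over all genes. In DSS_ICB_Fp against DSS it was 0.091, with 76 above and 16 below, and -0.011 over all genes. These medians are small beside the error of a single gene, whose 95% interval reached a median of 0.40 to either side on the log2 scale. In DSS_ICB_Fp against DSS the interval reached a log2 change of 1 or -1 for Cox7a1 and Cox8b and for none of the other 90 genes.

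**Figure D1:**
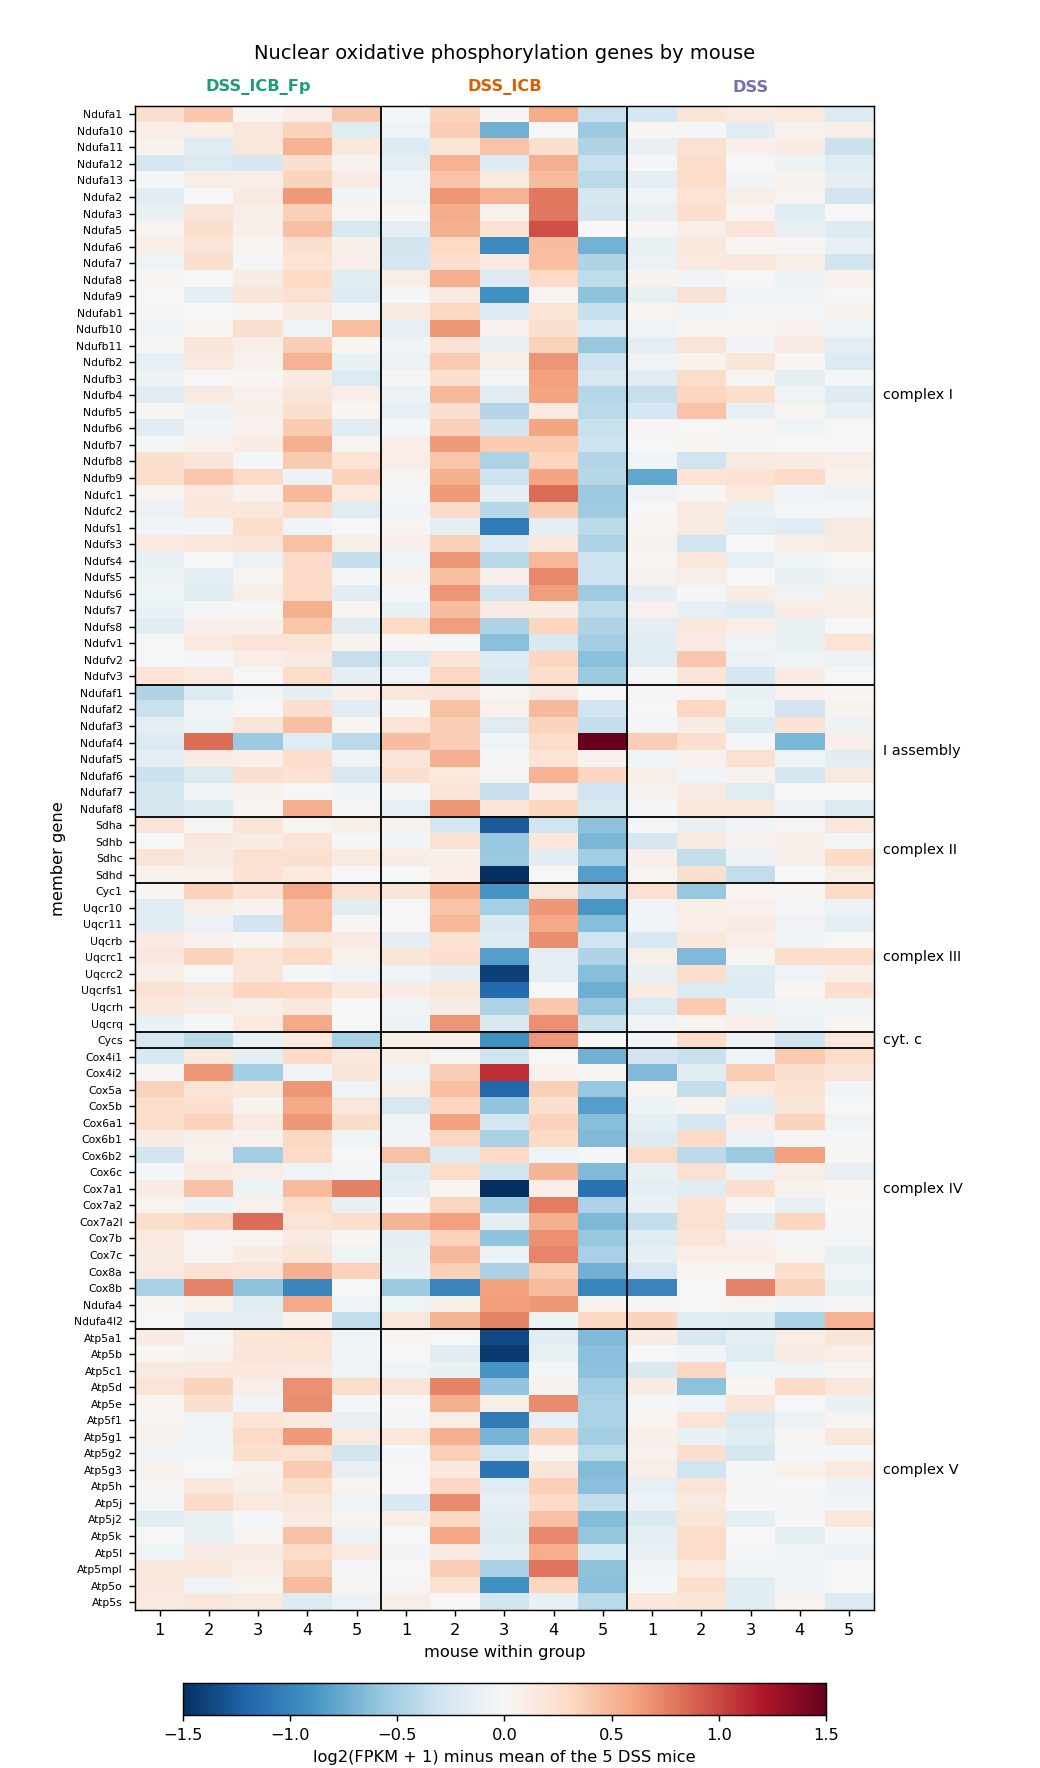
Each of the 91 rows is a tested gene, grouped by complex, and each column 1 mouse, with DSS_ICB_Fp, DSS_ICB and DSS from left to right; colour is log2(FPKM + 1) minus the mean of the 5 DSS mice, limited to -1.5 and 1.5. The columns of DSS_ICB mice 2 and 4 are mostly above the DSS mean, those of mice 3 and 5 mostly below it, and most other columns lie close to it.

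The widest differences were between mice of one group, DSS_ICB. The SD of log2(FPKM + 1) was largest in DSS_ICB for 88 of the 92 genes (95.7%), against 68.5% of all genes tested. The median SD was 0.177 in DSS_ICB_Fp, 0.437 in DSS_ICB and 0.162 in DSS mice, and over all genes tested it was 0.226, 0.372 and 0.220. The median difference of the 92 genes from the DSS mean was 0.015, 0.078, 0.085, 0.27 and -0.0015 in the DSS_ICB_Fp mice, -0.018, 0.33, -0.27, 0.33 and -0.46 in the DSS_ICB mice and -0.047, 0.12, -0.0090, 0.0019 and -0.0036 in the DSS mice (log2, mouse 1 to mouse 5). Over all genes tested the same medians in the DSS_ICB mice were 0.056, 0.11, -0.19, 0.017 and 0.048, so the library of mouse 3 was also low in its median over all genes and that of mouse 5 was not. DSS_ICB mouse 5 was below all 5 DSS mice in 75 of 92 genes (81.5%, against 22.1% of all genes tested) and mouse 3 in 55 (59.8%, against 45.4%). Mice 2 and 4 were above all 5 DSS mice in 62 genes each (67.4%, against 34.4% and 20.4% of all genes), and mouse 1 was so in 8 (8.70%, against 16.4%). Within DSS_ICB, mice 3 and 5 were the 2 lowest in 67 genes (72.8%, against 26.9% of all genes), among them all 9 of complex III, all 4 of complex II and 15 of 17 of complex V. The high and the low mice offset each other in the mean of DSS_ICB. Mice 3 and 5 also had the highest summed neutrophil markers of the 15 mice, 2126 and 1375 FPKM, against at most 407 in any other mouse.

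Without DSS_ICB mice 3 and 5, the median change in DSS_ICB against DSS was 0.22 (82 genes above 0; 22.8% of the 92 higher at an unadjusted p under 0.05, against 6.41% of all genes; none passing) and that in DSS_ICB_Fp against DSS_ICB was -0.13 (69 below 0; 14.1% lower at that p, against 14.3% of all genes). The medians over all genes were then 0.055 and -0.061. Mice 3 and 5 were the 2 lowest of DSS_ICB in 67 of the 92 genes. Leaving them out could only raise the DSS_ICB mean of those genes, so the direction of the shift was fixed by the choice. The shares at that p follow from the same choice and are not separate evidence. Without mouse 3 alone the 2 medians of the set were 0.083 and 0.040, and without mouse 5 alone 0.12 and -0.035. Without mouse 2 they were -0.090 and 0.18, and without mouse 4 -0.094 and 0.21. With all mice the first median was close to 0 (0.0023), and it was below 0 without mouse 2 or mouse 4. The second changed sign without mouse 5. As given below, the first was also below 0 with totals rescaled, and the second with sample quality weights, so neither sign was stable.

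**Figure D2:**
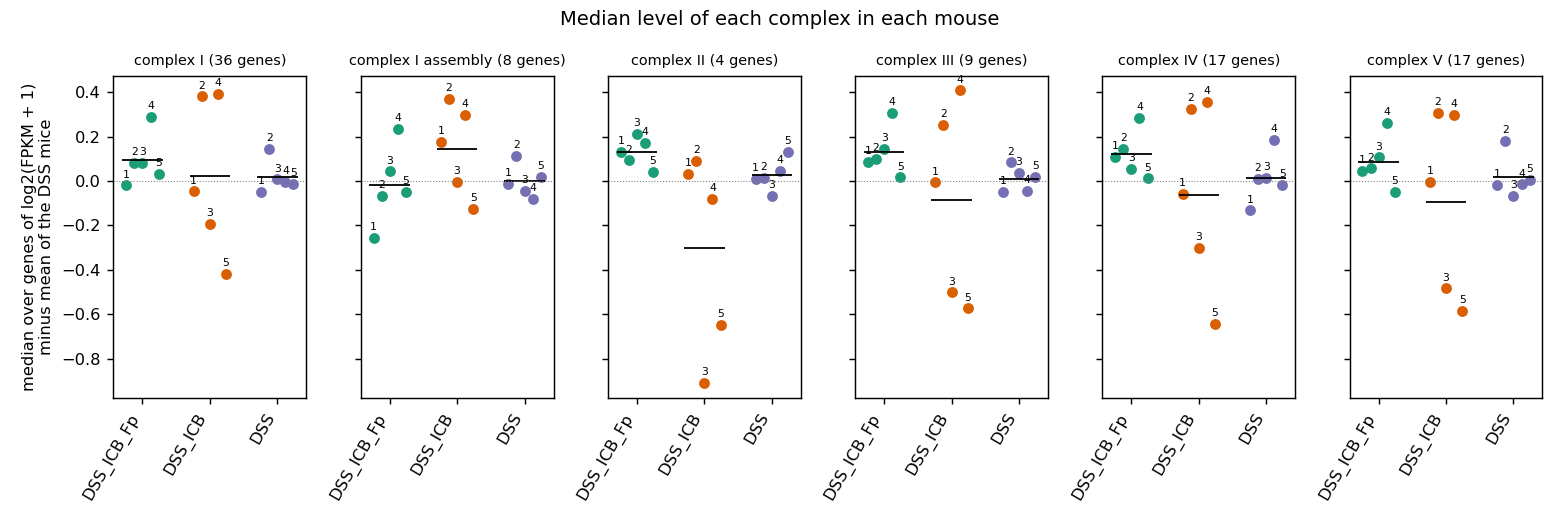
Median over the tested genes of each complex of log2(FPKM + 1) minus the mean of the 5 DSS mice, 1 point per mouse with the mouse number beside it and the group mean as a line; groups run DSS_ICB_Fp, DSS_ICB, DSS. DSS_ICB mice 3 and 5 lie lowest in complexes I, II, III, IV and V, and mouse 3 reaches -0.91 in complex II. Among the assembly factors of complex I, DSS_ICB_Fp mouse 1 lies lowest, at -0.26.

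Complex II (succinate dehydrogenase) is also an enzyme of the tricarboxylic acid cycle, and all its subunits are nuclear. Its median was the furthest from 0 of the 5 complexes in both comparisons that involve DSS_ICB. All 4 genes were below 0 in DSS_ICB against DSS (median -0.34) and above 0 in DSS_ICB_Fp against DSS_ICB (median 0.48), and in DSS_ICB_Fp against DSS the median was 0.10. None of the 4 passed, and the means over all 15 mice ran from 46.7 FPKM for Sdhc to 167 FPKM for Sdhd. Sdha (chr13:74322254-74350280 on the minus strand, GRCm38), the flavoprotein that oxidises succinate, had 99.7, 88.4, 100.5, 89.6 and 93.3 FPKM in DSS_ICB_Fp mice, 90.8, 72.9, 35.99, 71.04 and 56.7 FPKM in DSS_ICB mice and 86.1, 80.7, 84.8, 88.1 and 98.1 FPKM in DSS mice. DSS_ICB mice 3 and 5 were lowest, DSS_ICB mouse 1 lay among the DSS_ICB_Fp mice, and the groups overlap. The log2 change was 0.58 ± 0.19 in DSS_ICB_Fp against DSS_ICB (SE; limma adjusted p = 0.123, 95% interval 0.17 to 0.99) and -0.47 ± 0.19 in DSS_ICB against DSS (adjusted p = 0.430, interval -0.88 to -0.066). Sdha was the 1 gene of the set that passed under any alternative, in DSS_ICB_Fp against DSS_ICB without DSS_ICB mouse 1 (0.71, adjusted p = 0.0465), where 4.10% of all genes tested passed. Over all alternatives its adjusted p in that comparison ran from 0.0465 to 0.264.

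Sdhd, a membrane anchor of the complex, had 183, 181, 203, 192 and 173 FPKM in DSS_ICB_Fp mice, 175, 187, 57.02, 175 and 97.4 FPKM in DSS_ICB mice and 179, 206, 134, 174 and 186 FPKM in DSS mice. Only DSS_ICB mice 3 and 5 left the range of the other groups. Its change was 0.56 ± 0.27 in DSS_ICB_Fp against DSS_ICB (SE, limma adjusted p = 0.244) and -0.46 ± 0.27 in DSS_ICB against DSS (adjusted p = 0.492). Sdhc, the other anchor, had 53.2, 50.5, 54.4, 54.6 and 51.3 FPKM in DSS_ICB_Fp mice and 49.96, 48.9, 31.00, 41.1 and 31.8 FPKM in DSS_ICB mice, against 48.8, 35.9, 43.4, 48.96 and 56.6 FPKM in DSS mice. Every DSS_ICB_Fp mouse exceeded every DSS_ICB mouse, with the nearest values at 50.5 and 49.96 FPKM. Sdhc was the 1 gene of the 92 for which these groups did not overlap, where 0.945% of all genes tested were higher without overlap. Its change was 0.40 ± 0.16 (SE, limma adjusted p = 0.168). Sdhb, the iron-sulfur subunit, averaged 60.6 ± 4.14, 51.5 ± 14.4 and 56.9 ± 5.79 FPKM in DSS_ICB_Fp, DSS_ICB and DSS mice (SD, n = 5 each). Without DSS_ICB mice 3 and 5 the median of complex II was 0.024 in DSS_ICB against DSS and 0.12 in DSS_ICB_Fp against DSS_ICB.

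Promoters of respiratory genes are known for sites of NRF1 and of the ETS factor GABP (NRF2), regulators of mitochondrial biogenesis. The 250 bases before the RefSeq start of Sdha and Sdhd are shown because these genes lead the complex with the largest medians. Both are read on the minus strand of GRCm38.p6, at chr13:74350241-74350490 and chr9:50603850-50604099, from RefSeq. Capitals mark matches to GCGCANGCGC (NRF1), CCGGAAG (ETS), AAGATGGCG (YY1) or TCAAGGTCA (ERR), searched on both strands. Sdha has 3 NRF1 matches, and Sdhd has 1 NRF1 match followed by 1 ETS match on the reverse strand.
Sdha: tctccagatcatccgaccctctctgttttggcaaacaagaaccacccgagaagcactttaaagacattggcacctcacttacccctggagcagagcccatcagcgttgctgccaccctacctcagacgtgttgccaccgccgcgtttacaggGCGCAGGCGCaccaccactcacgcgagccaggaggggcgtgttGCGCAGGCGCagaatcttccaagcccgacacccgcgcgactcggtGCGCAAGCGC
Sdhd: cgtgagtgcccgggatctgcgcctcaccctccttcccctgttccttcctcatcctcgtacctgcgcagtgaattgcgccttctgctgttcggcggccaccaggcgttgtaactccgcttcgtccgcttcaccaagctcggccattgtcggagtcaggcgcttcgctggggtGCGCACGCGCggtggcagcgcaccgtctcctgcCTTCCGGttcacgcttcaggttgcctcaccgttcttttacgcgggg
Windows of 300 bases, with 50 after the start, were at hand for 75 of the 96 genes. GCGCANGCGC was in 19 of them (25.3%), against 7.17% of 17492 genes with a window, and CCGGAAG in 18 (24%), against 12.95% of them. The YY1 letters were in 8 windows (10.7%), against 2.14% of all, and the ERR letters in 2, against 0.377%. At least 1 of the 4 was found in 38 windows (50.7%), against 20.3% of all. By complex these were 15 of 32 windows in complex I, 4 of 7 of its assembly factors, 3 of 3 in complex II, 3 of 5 in complex III, 0 of 1 for cytochrome c, 3 of 14 in complex IV and 10 of 13 in complex V. A match describes the letters and is not evidence of binding.

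Complex I (NADH dehydrogenase) was split between its 7 nuclear core subunits, which between them hold the flavin and the iron-sulfur clusters, and 29 accessory subunits. In DSS_ICB_Fp against DSS_ICB the core median was 0.21 and the accessory median 0.0018. In DSS_ICB against DSS they were -0.10 and 0.079, and in DSS_ICB_Fp against DSS 0.091 and 0.10. None of the 36 passed. Means over all 15 mice ran from 6.58 FPKM for Ndufb2 to 126 FPKM for Ndufa1 and changes in DSS_ICB against DSS from -0.34 for Ndufs1 to 0.34 for Ndufa2. Ndufv1, the flavin subunit that takes electrons from NADH, had 32.1, 35.8, 37.1, 36.9 and 33.6 FPKM in DSS_ICB_Fp mice, 32.8, 31.8, 20.6, 27.5 and 22.4 FPKM in DSS_ICB mice and 28.8, 35.1, 30.9, 30.00 and 37.2 FPKM in DSS mice. Values were lowest in DSS_ICB mice 3 and 5, mouse 4 was also below every DSS mouse, and DSS_ICB_Fp mice lay within the DSS range. Its change was 0.39 ± 0.14 in DSS_ICB_Fp against DSS_ICB (SE, limma adjusted p = 0.142) and -0.27 ± 0.14 in DSS_ICB against DSS (adjusted p = 0.455).

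Ndufs1, the largest iron-sulfur subunit, had 16.8, 16.7, 20.99, 16.6 and 17.3 FPKM in DSS_ICB_Fp mice, 17.7, 15.6, 7.78, 15.6 and 12.97 FPKM in DSS_ICB mice and 17.8, 18.9, 15.5, 15.4 and 19.1 FPKM in DSS mice. The level in DSS_ICB mouse 3 was the lowest of the 15. The core subunits Ndufs3, Ndufs7, Ndufs8 and Ndufv2 had changes of 0.21, 0.047, -0.018 and 0.073 in DSS_ICB_Fp against DSS_ICB. Accessory and core subunits were further apart in DSS_ICB mouse 3 than in mouse 5. The median of the accessory subunits was -0.17 in that mouse and that of the core subunits -0.46, while in mouse 5 they were -0.40 and -0.46 (log2, relative to the DSS mean). Ndufa2, an accessory subunit, had 80.2, 132, 119.7, 145 and 69.8 FPKM in DSS_ICB mice and 80.3, 95.9, 88.5, 85.4 and 67.9 FPKM in DSS mice, so mouse 3 was above every DSS mouse for it.

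The 8 assembly factors of complex I, which build the enzyme and are not part of it, had medians of the opposite sign to those of complex II in every comparison. Their median was 0.15 in DSS_ICB against DSS (7 of 8 above 0), -0.17 in DSS_ICB_Fp against DSS_ICB (6 of 8 below 0) and -0.062 in DSS_ICB_Fp against DSS. Ndufaf1, a factor of the membrane arm, averaged 8.92 ± 1.30, 10.7 ± 0.726 and 9.94 ± 0.518 FPKM in DSS_ICB_Fp, DSS_ICB and DSS mice (SD, n = 5 each), with a change of -0.25 ± 0.11 in DSS_ICB_Fp against DSS_ICB (SE, limma adjusted p = 0.185). Ndufaf4, another assembly factor, had 3.01, 7.25, 2.16, 3.05 and 2.48 FPKM in DSS_ICB_Fp mice, 5.36, 4.95, 3.40, 4.59 and 11.96 FPKM in DSS_ICB mice and 4.98, 4.46, 3.56, 1.88 and 3.86 FPKM in DSS mice. DSS_ICB mouse 5, low for most of the set, was the highest of all 15 for this gene, and its change was -0.61 ± 0.30 in DSS_ICB_Fp against DSS_ICB (SE, limma adjusted p = 0.257).

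Complex III (cytochrome bc1) passes electrons on to cytochrome c. None of its 9 genes passed, and means over all 15 mice ran from 51.7 FPKM for Uqcrc1 to 255 FPKM for Uqcr10. The 9 subunits had a median of 0.22 in DSS_ICB_Fp against DSS_ICB, with 7 above 0, of -0.090 in DSS_ICB against DSS, with 6 below 0, and of 0.10 in DSS_ICB_Fp against DSS. Without DSS_ICB mice 3 and 5 the medians in the comparisons with DSS_ICB were -0.055 and 0.26. Uqcrfs1, the Rieske iron-sulfur protein, had 132, 127, 143, 140.3 and 126 FPKM in DSS_ICB_Fp mice, 122, 128, 50.1, 114 and 67.9 FPKM in DSS_ICB mice and 124, 98.6, 98.4, 116 and 135 FPKM in DSS mice. Its change was 0.56 ± 0.23 in DSS_ICB_Fp against DSS_ICB (SE, limma adjusted p = 0.176). DSS_ICB mice 3 and 5 were below every other mouse and the other DSS_ICB mice lay within the DSS range. Uqcrc2, a core protein, had 118, 112, 127, 110.2 and 106 FPKM in DSS_ICB_Fp mice, 107, 101, 41.4, 102 and 70.9 FPKM in DSS_ICB mice and 103, 134, 98.1, 107 and 118 FPKM in DSS mice, with the same mice lowest. Its changes were 0.51 ± 0.22 in DSS_ICB_Fp against DSS_ICB (SE, limma adjusted p = 0.190) and -0.48 ± 0.22 in DSS_ICB against DSS (adjusted p = 0.435). Cyc1, cytochrome c1, and Uqcrc1 averaged 79.2 ± 11.1 and 58.5 ± 4.62 FPKM in DSS_ICB_Fp mice, 64.2 ± 23.4 and 45.2 ± 13.5 in DSS_ICB mice and 65.9 ± 13.97 and 51.4 ± 11.9 in DSS mice (SD, n = 5 each). Cycs, the carrier cytochrome c that also starts apoptosis when released, had 53.3, 48.3, 59.3, 71.1 and 45.8 FPKM in DSS_ICB_Fp mice, 68.03, 68.2, 33.4, 101 and 64.1 FPKM in DSS_ICB mice and 61.99, 78.5, 60.1, 51.6 and 71.5 FPKM in DSS mice. DSS_ICB mouse 3 was the lowest of the 15 and mouse 4 the highest, while mouse 5 lay within the DSS range. Its change in DSS_ICB_Fp against DSS_ICB was -0.20 ± 0.23 (SE, limma adjusted p = 0.641).

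**Figure D3:**
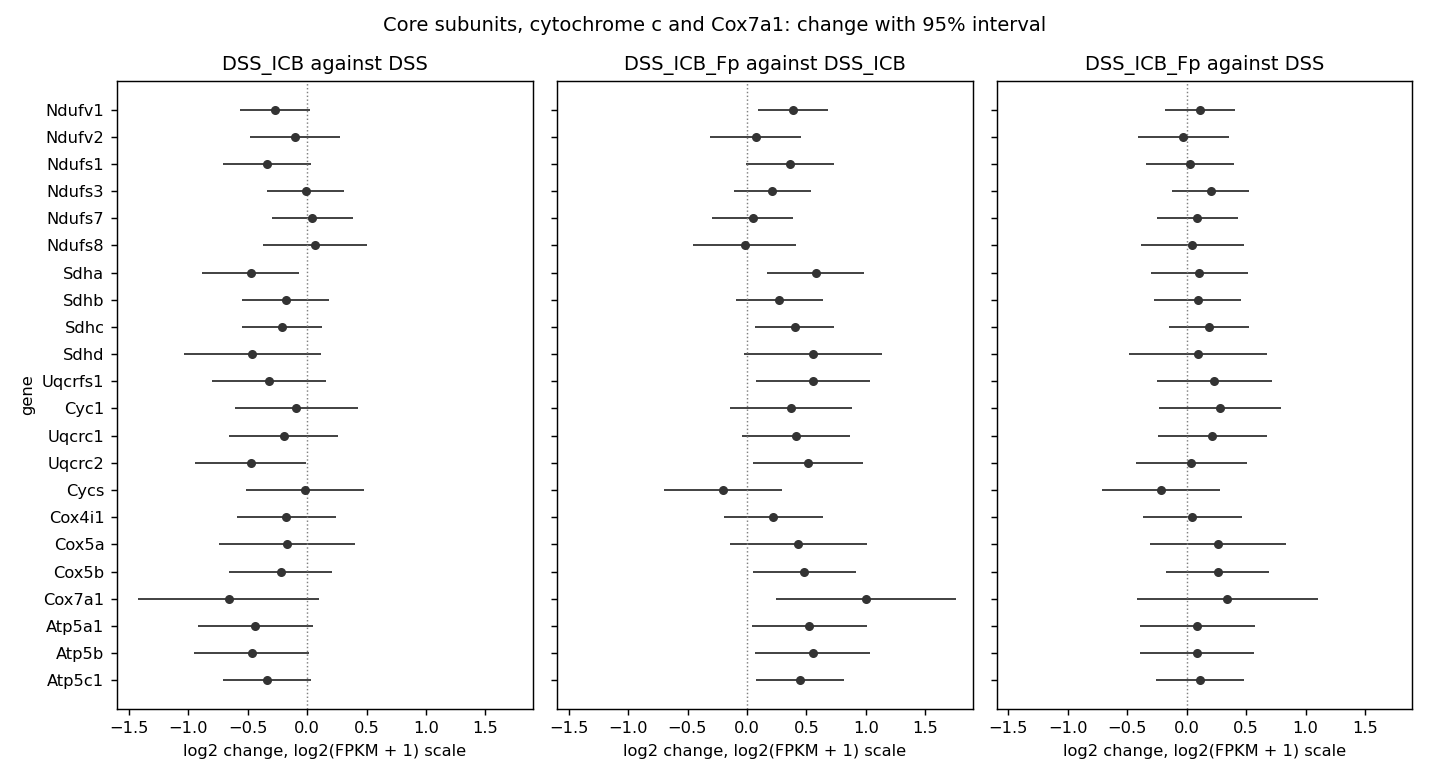
Fitted change on the log2(FPKM + 1) scale with its 95% interval for 21 core genes and Cox7a1, with 1 panel for each of the 3 comparisons. In DSS_ICB against DSS 20 of the 22 points lie below 0, and 20 lie above 0 in each of the other comparisons, nearer to 0 in DSS_ICB_Fp against DSS; none of the genes passed after adjustment.

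Complex IV (cytochrome c oxidase) had a median of -0.053 in DSS_ICB against DSS, 0.13 in DSS_ICB_Fp against DSS_ICB and 0.080 in DSS_ICB_Fp against DSS over 17 tested genes, and none passed. Means over all 15 mice of the tested genes ran from 0.930 FPKM for Cox8b to 394 FPKM for Cox8a. Widespread subunits were abundant, with Cox6b1, Cox8a and Cox6a1 averaging 374 ± 36.4, 452 ± 52.9 and 384 ± 54.5 FPKM in DSS_ICB_Fp mice, 333 ± 98.4, 357 ± 118 and 316 ± 106 FPKM in DSS_ICB mice and 350.3 ± 46.1, 372 ± 46.5 and 305 ± 49.5 FPKM in DSS mice (SD, n = 5 each). Cox5b, a zinc-binding subunit, had 124, 122, 106, 153 and 115 FPKM in DSS_ICB_Fp mice, 86.5, 128, 67.5, 121 and 57.1 FPKM in DSS_ICB mice and 97.2, 106, 90.98, 117 and 103 FPKM in DSS mice. Its change was 0.48 ± 0.20 in DSS_ICB_Fp against DSS_ICB (SE, limma adjusted p = 0.188). Cox7a2l, which joins complexes III and IV into supercomplexes, had the smallest p of the set in DSS_ICB_Fp against DSS, at 70.9, 73.7, 106, 68.2 and 71.1 FPKM in DSS_ICB_Fp mice and 45.4, 69.2, 52.2, 73.9 and 58.1 FPKM in DSS mice. The change was 0.38 ± 0.24 (SE, limma adjusted p = 0.9997, interval -0.13 to 0.89), and the groups overlap.

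Cox7a1, the isoform of subunit 7A known from muscle and brown fat, had the largest log2 change of the set in both comparisons that involve DSS_ICB. It had 26.2, 33.3, 22.99, 33.9 and 41.6 FPKM in DSS_ICB_Fp mice, 22.05, 24.8, 4.48, 26.1 and 10.6 FPKM in DSS_ICB mice and 21.7, 21.3, 28.9, 25.2 and 24.7 FPKM in DSS mice. Mice 3 and 5 of DSS_ICB were far below the rest, and the other 3 lay within the DSS range. The change was 1.004 ± 0.36 in DSS_ICB_Fp against DSS_ICB (SE, limma adjusted p = 0.140, interval 0.24 to 1.76) and -0.66 ± 0.36 in DSS_ICB against DSS (adjusted p = 0.467). Without DSS_ICB mice 3 and 5 these were 0.34 and 0.0027. Its widespread partner Cox7a2 averaged 161 ± 16.9, 168 ± 66.1 and 157 ± 15.5 FPKM in DSS_ICB_Fp, DSS_ICB and DSS mice. The share of Cox7a1 in the pair, in percent of their summed FPKM, was 14.01, 18.4, 12.3, 15.3 and 22.3 in DSS_ICB_Fp mice, 12.5, 11.2, 4.01, 8.89 and 8.55 in DSS_ICB mice and 12.98, 10.4, 15.5, 14.9 and 13.7 in DSS mice. The mean share was 16.5 ± 3.93% in DSS_ICB_Fp, 9.04 ± 3.27% in DSS_ICB and 13.5 ± 1.98% in DSS mice (SD, n = 5 each). An exact two-sided permutation test over 252 arrangements gave p = 0.0159 for DSS_ICB_Fp against DSS_ICB and p = 0.0317 for DSS_ICB against DSS, both with an adjusted p = 0.238 over 15 tests, where 0.00794 is the smallest p possible. Neither passed.

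In DSS_ICB mice 3 and 5, where Cox7a1 was lowest, the summed markers of smooth muscle and of striated muscle were not low. The 13 striated muscle genes summed to 8.91 to 26.7 FPKM in DSS_ICB_Fp mice, 10.7, 8.29, 63.5, 20.4 and 52.2 FPKM in DSS_ICB mice 1 to 5 and 8.19 to 26.4 FPKM in DSS mice. The striated muscle sum was carried mostly by Ckm in mouse 3, at 37.2 FPKM, and by Acta1 in mouse 5, at 36.7 FPKM. Mylpf went the other way and was lowest of the 15 in mouse 3, at 0.371 FPKM. Of the 13 striated muscle genes, 6 were at 0 in some library. The 8 adipocyte genes summed to 13.9 to 70.5 FPKM in DSS_ICB_Fp mice and 12.5 to 33.2 FPKM in DSS mice. In DSS_ICB mice 1 to 5 they summed to 22.9, 21.3, 22.7, 15.4 and 11.2 FPKM, with mouse 5 the lowest of the 15. Pck1 alone was below the DSS range in mouse 5, at 0.501 FPKM against 5.61 to 16.2 FPKM in DSS mice. The other adipocyte genes lay within that range in mouse 5, with Fabp4 at 8.55 FPKM. Of the 8, 1 was at 0 in every mouse. Their part in the result was not tested.

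**Figure D4:**
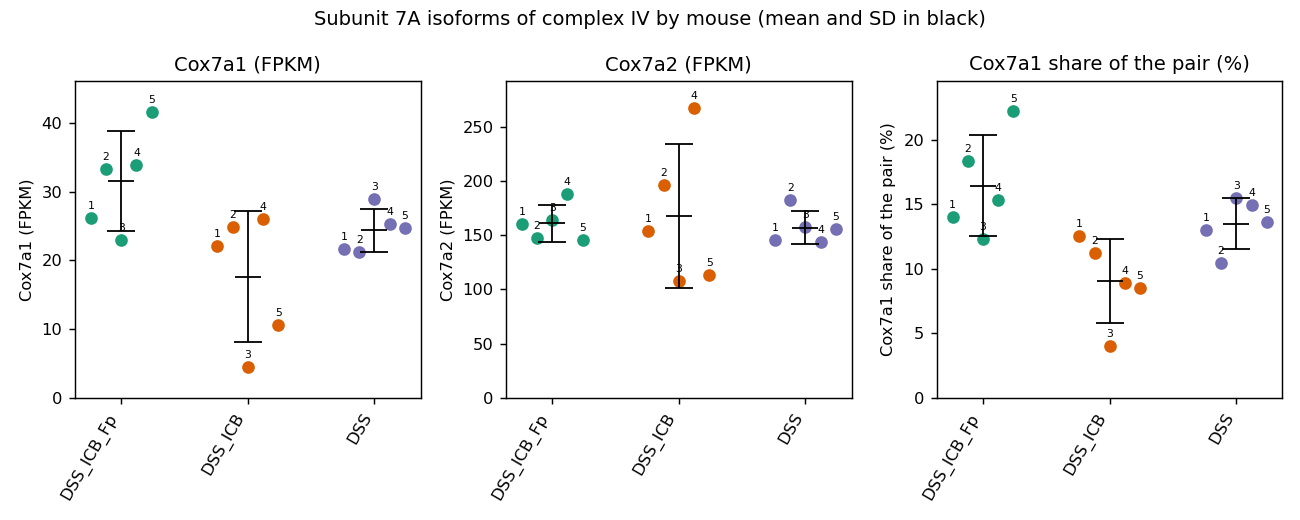
FPKM of Cox7a1 and Cox7a2 and the percent share of Cox7a1 in their sum, 1 point per mouse with the mouse number beside it, and the mean and SD in black; groups run DSS_ICB_Fp, DSS_ICB, DSS. The share lies between 12.3% and 22.3% in DSS_ICB_Fp mice and between 4.01% and 12.5% in DSS_ICB mice.

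Other isoform pairs were tested the same way and none passed. Ndufa4l2, a hypoxia-linked relative of Ndufa4, averaged 0.952 ± 0.215, 1.70 ± 0.589 and 1.18 ± 0.638 FPKM in DSS_ICB_Fp, DSS_ICB and DSS mice (SD, n = 5 each). Its share of the pair averaged 2.41 ± 0.445% in DSS_ICB_Fp mice and 3.79 ± 1.23% in DSS_ICB mice, against 3.15 ± 1.67% in DSS mice. The exact permutation p for DSS_ICB_Fp against DSS_ICB was 0.0556 (adjusted p = 0.278). Cox4i2, the hypoxia-linked isoform of subunit 4, had 0.889, 1.53, 3.22, 1.04 and 1.01 FPKM in DSS_ICB mice and 0.244, 0.768, 1.57, 1.33 and 1.24 FPKM in DSS mice. It had 0.997, 2.10, 0.386, 0.916 and 1.23 FPKM in DSS_ICB_Fp mice. DSS_ICB mouse 3 and DSS_ICB_Fp mouse 2 were above the DSS range. Pericyte markers were also highest in DSS_ICB mouse 3 (225 FPKM), and their part in its Cox4i2 value was not tested. Cox6b2 and Cox8b, known from testis and from muscle or brown fat, were below 1% of their pairs on average in every group. The pair of Cox6a2 was not tested because Cox6a2 was under 1 FPKM in every library.

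The promoters of Cox6a1 and Cox7a1 are shown as a pair of complex IV genes with different spread, one widespread and one restricted. They are the 250 bases before the RefSeq start in GRCm38.p6, chr5:115348959-115349208 on the minus strand and chr7:30183921-30184170 on the plus strand, with capitals as above. Cox6a1 has 2 NRF1 matches and 1 ETS match on the reverse strand. Cox7a1 has none of the 4 motifs, which says only that these letters are not in this window.
Cox6a1: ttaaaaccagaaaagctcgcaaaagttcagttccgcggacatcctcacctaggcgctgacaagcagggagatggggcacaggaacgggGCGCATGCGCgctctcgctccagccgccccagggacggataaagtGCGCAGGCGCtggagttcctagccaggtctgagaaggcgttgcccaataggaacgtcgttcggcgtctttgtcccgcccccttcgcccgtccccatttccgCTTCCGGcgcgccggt
Cox7a1: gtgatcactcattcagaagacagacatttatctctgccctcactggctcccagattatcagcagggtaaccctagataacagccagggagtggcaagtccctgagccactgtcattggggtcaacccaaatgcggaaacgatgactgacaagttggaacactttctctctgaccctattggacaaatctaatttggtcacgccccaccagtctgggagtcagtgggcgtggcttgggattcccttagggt

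Complex V (ATP synthase) had medians of -0.037 in DSS_ICB against DSS, 0.17 in DSS_ICB_Fp against DSS_ICB, with 15 of 17 genes above 0, and 0.11 in DSS_ICB_Fp against DSS, with 16 of 17 above 0. None passed, and means over all 15 mice of the tested genes ran from 4.55 FPKM for Atp5s to 311 FPKM for Atp5a1. Without DSS_ICB mice 3 and 5 the median was -0.10 in DSS_ICB_Fp against DSS_ICB and 0.21 in DSS_ICB against DSS. In both comparisons that involve DSS_ICB, 3 subunits of the catalytic head had the smallest p of the complex. Atp5b, the catalytic beta subunit, had 325, 330.3, 364, 367 and 304 FPKM in DSS_ICB_Fp mice, 316, 286, 116, 293 and 206 FPKM in DSS_ICB mice and 319.5, 308, 280.0, 345 and 341 FPKM in DSS mice. The change was 0.55 ± 0.23 in DSS_ICB_Fp against DSS_ICB (SE, limma adjusted p = 0.178, interval 0.071 to 1.03) and -0.47 ± 0.23 in DSS_ICB against DSS (adjusted p = 0.450). DSS_ICB mouse 3 was at the lowest level of the 15 and mouse 5 next. Atp5a1, the alpha subunit, and Atp5c1, the gamma subunit that turns inside the head, had changes of 0.53 ± 0.23 and 0.45 ± 0.17 in DSS_ICB_Fp against DSS_ICB (SE, limma adjusted p = 0.199 and 0.165). Atp5a1 averaged 349 ± 27.03 FPKM in DSS_ICB_Fp, 256 ± 87.8 FPKM in DSS_ICB and 329 ± 40.4 FPKM in DSS mice, and Atp5c1 averaged 186 ± 11.1, 139.7 ± 34.9 and 173 ± 24.6 FPKM in the same order (SD, n = 5 each). Atp5e, the small epsilon subunit of the stalk, had 60.1, 69.6, 56.4, 96.5 and 57.7 FPKM in DSS_ICB_Fp mice, 58.8, 86.1, 62.7, 97.00 and 42.2 FPKM in DSS_ICB mice and 58.3, 56.6, 67.1, 58.8 and 55.00 FPKM in DSS mice. For Atp5e, DSS_ICB mouse 3 lay within the DSS range, and the change was 0.0031 ± 0.21 in DSS_ICB_Fp against DSS_ICB (SE, limma adjusted p = 0.996).

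The genes were also split by transcript length. The 92 genes have a median transcript of 867.5 bases (360 to 3632), against 2833 over all protein-coding genes tested. The 54 genes under 1000 bases had medians of 0.055 in DSS_ICB against DSS and 0.033 in DSS_ICB_Fp against DSS_ICB, and the 38 longer genes -0.10 and 0.23. In DSS_ICB_Fp against DSS the medians were 0.10 and 0.091. In DSS_ICB mouse 3 the short genes had a median of -0.18 and the longer ones -0.58 relative to the DSS mean, and in mouse 5 -0.45 and -0.49. Over all protein-coding genes tested, the 871 under 1000 bases had medians of 0.14 and -0.11 in the same comparisons and the 11383 longer ones 0.010 and -0.033. The core subunits of complex I have a median transcript of 1623 bases and the accessory ones of 763, and the part of length in these differences was not tested.

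The mitochondrial genome supplies 13 further subunits, and none of them passed. Their median change was -0.18 in DSS_ICB against DSS, 0.10 in DSS_ICB_Fp against DSS_ICB and -0.062 in DSS_ICB_Fp against DSS. The summed FPKM of the mitochondrial subunits of complex I, divided by that of the nuclear subunits, was 10.3, 10.3, 10.7, 8.56 and 11.3 in DSS_ICB_Fp mice, 9.55, 2.99, 29.8, 9.36 and 12.9 in DSS_ICB mice and 10.4, 14.9, 11.7, 11.4 and 10.2 in DSS mice. DSS_ICB mouse 3 was the highest of the 15 and mouse 2 the lowest. For complex IV the ratio was 12.4, 12.1, 12.9, 8.76 and 12.9 in DSS_ICB_Fp mice, 10.8, 4.73, 30.3, 10.9 and 14.6 in DSS_ICB mice and 11.96, 18.6, 13.5, 12.6 and 11.6 in DSS mice. Mouse 3 was highest and mouse 2 lowest in complexes III and V too, at 18.6 and 3.64 in complex III, and mouse 2 was at 3.32 in complex V. Mouse 5, whose nuclear genes were lowest, had ratios of 12.9, 7.42, 14.6 and 11.1 in complexes I, III, IV and V, all within the range of the DSS mice. All mitochondrially encoded RNA made up 33.2% of the FPKM in DSS_ICB mouse 3 and 9.39% in mouse 2, and with totals rescaled to leave it out, the medians of the 92 genes were -0.021 in DSS_ICB against DSS and 0.093 in DSS_ICB_Fp against DSS_ICB.

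**Figure D5:**
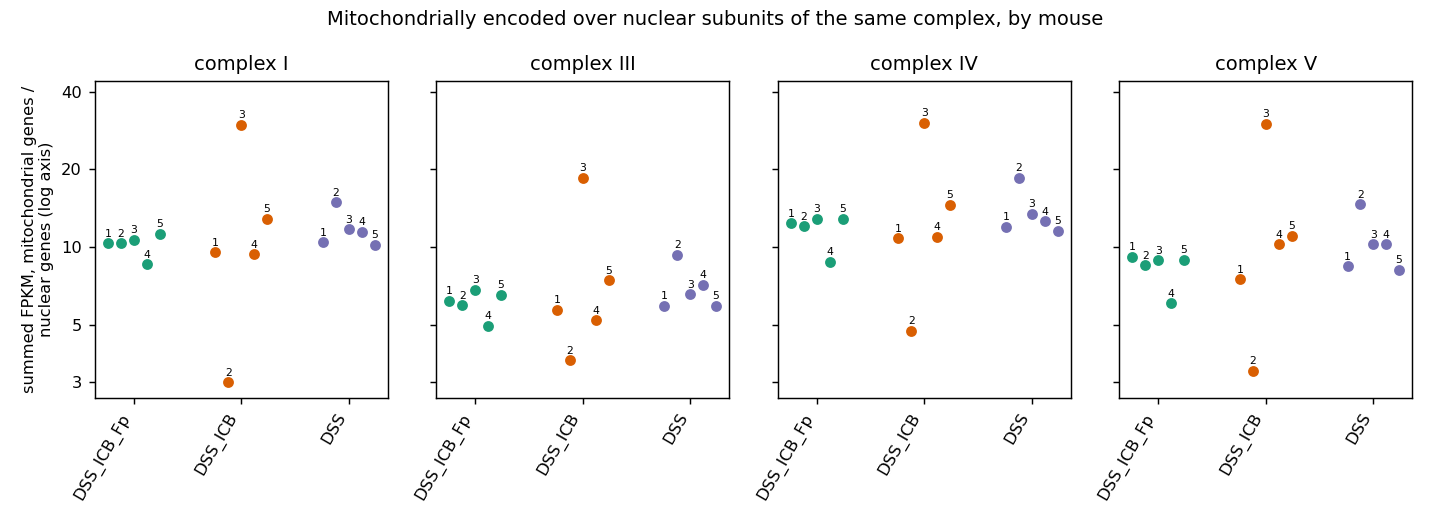
Summed FPKM of the mitochondrially encoded subunits divided by that of the nuclear subunits of the same complex, on a log axis, 1 point per mouse with its number; groups run DSS_ICB_Fp, DSS_ICB, DSS. DSS_ICB mouse 3 lies above and mouse 2 below every other mouse in all 4 complexes shown.

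Genes that feed or build the respiratory chain were examined as lists. All 20 tested genes of the tricarboxylic acid cycle and pyruvate dehydrogenase were below 0 in DSS_ICB against DSS (median -0.23) and 19 were above 0 in DSS_ICB_Fp against DSS_ICB (median 0.26), with 0 passing in either. Cs, citrate synthase, had 119.5, 102, 112, 95.8 and 117 FPKM in DSS_ICB_Fp mice, 103, 91.9, 32.2, 78.3 and 62.5 FPKM in DSS_ICB mice and 98.3, 91.5, 91.3, 105 and 124 FPKM in DSS mice, and its change in DSS_ICB_Fp against DSS_ICB was 0.66 ± 0.24 (SE, limma adjusted p = 0.148). As for complex II, DSS_ICB mice 3 and 5 were lowest. Without both mice the list's medians were -0.047 and 0.063.

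Of 19 regulators of mitochondrial transcription and biogenesis, 0 passed in any comparison. Their medians were -0.034 in DSS_ICB against DSS, with 12 below 0, -0.025 in DSS_ICB_Fp against DSS_ICB, with 11 below 0, and -0.054 in DSS_ICB_Fp against DSS. The genes named next were picked after their values were seen and do not stand for the list. Ppargc1a (PGC-1 alpha), a coactivator of mitochondrial biogenesis, had 8.80, 4.46, 7.80, 3.09 and 9.94 FPKM in DSS_ICB_Fp mice, 4.76, 4.09, 0.576, 3.38 and 1.39 FPKM in DSS_ICB mice and 4.89, 6.34, 5.36, 7.10 and 6.32 FPKM in DSS mice. Every DSS_ICB mouse was below every DSS mouse. The change was -1.02 ± 0.34 there (SE, limma adjusted p = 0.418) and 1.09 ± 0.34 in DSS_ICB_Fp against DSS_ICB (adjusted p = 0.113). Esrra, the nuclear receptor ERR alpha that works with it, had 30.5, 29.8, 24.9, 22.5 and 29.1 FPKM in DSS_ICB_Fp mice, 21.9, 23.6, 6.79, 18.4 and 16.1 FPKM in DSS_ICB mice and 22.6, 13.9, 19.01, 30.4 and 27.2 FPKM in DSS mice, and a change of 0.72 ± 0.28 in DSS_ICB_Fp against DSS_ICB (SE, limma adjusted p = 0.160). Nrf1 and Gabpa, whose motifs were searched above, had changes of -0.041 ± 0.11 and -0.071 ± 0.13 (SE) in that comparison.

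The 38 assembly factors outside the name rule had medians of -0.022 in DSS_ICB against DSS and 0.027 in DSS_ICB_Fp against DSS_ICB, and 0 passed. Of 21 carrier, outer membrane and import genes 0 passed, with Slc25a5, an ATP/ADP carrier, at 0.81 ± 0.36 and Hspe1, a mitochondrial chaperonin, at -0.76 ± 0.25 in DSS_ICB_Fp against DSS_ICB (SE, limma adjusted p = 0.212 and 0.123). Mitochondrial ribosomal proteins (78 genes) had medians of 0.13 in DSS_ICB against DSS and -0.15 in DSS_ICB_Fp against DSS_ICB. Those of cytosolic ribosomal proteins (87 genes) were 0.16 and -0.12. Neither list held a gene that passed, and both had signs opposite to those of complex II and the tricarboxylic acid cycle.

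Summed markers of some other cell types were highest or lowest in both DSS_ICB mice in which these genes were low, and those of others were not. The 9 neutrophil genes summed to 112 to 221 FPKM in DSS_ICB_Fp mice, 407, 335, 2126, 389.5 and 1375 FPKM in DSS_ICB mice 1 to 5 and 119 to 249.6 FPKM in DSS mice. Both DSS_ICB mice low for the set were highest in this sum, and all 5 DSS_ICB mice were above all DSS mice in it. In mouse 3 the sum is carried mostly by S100a8 and S100a9, at 593 and 1228 FPKM. Ly6g, the largest part of the sum in every DSS mouse, was lowest of all mice in DSS_ICB mouse 3, at 87.2 FPKM. In DSS_ICB mice 1, 2, 4 and 5 Ly6g had 171, 204, 226 and 502 FPKM, against 97.3 to 207 FPKM in DSS mice. Every other gene of the list was highest in mouse 3 and next highest in mouse 5. The summed absorptive colonocyte genes given above were lowest in DSS_ICB mouse 3 and next lowest in mouse 5. In mouse 5 the sum is carried mostly by Lypd8, at 3256 FPKM. In that mouse Lypd8, Muc3, Guca2a, Slc26a3 and Cyp2c55 lay below every DSS mouse. Vil1, Cdhr5, Krt20, Car1, Car4, Aqp8 and Ms4a18 lay within the DSS range, and Saa1 and Slc9a3 above it. Goblet cell genes (9) summed to 3799 to 5219.9 FPKM in DSS_ICB_Fp mice, 2833, 3804, 349, 5734 and 1905 FPKM in DSS_ICB mice 1 to 5 and 2160.1 to 4564 FPKM in DSS mice, with the same 2 mice lowest. Macrophage and monocyte genes (8) summed to 324 to 390.3 FPKM in DSS_ICB_Fp mice, 495, 392, 297, 685 and 1070.0 FPKM in DSS_ICB mice 1 to 5 and 377 to 581 FPKM in DSS mice. In this sum mouse 5 was highest and mouse 3 lowest. Cd14 was instead highest in mouse 3, at 111 FPKM against 22.8 to 36.6 FPKM in DSS mice, and Cd68 and Ly6c2 were not lowest there. Erythroid genes (5) summed to 26.4 to 244 FPKM in DSS_ICB_Fp mice, 133, 217, 587, 947 and 1151 FPKM in DSS_ICB mice 1 to 5 and 56.4 to 352 FPKM in DSS mice. Pericyte genes (7) summed to 27.9 to 48.1 FPKM in DSS_ICB_Fp mice, 42.01, 50.4, 225, 49.5 and 101 FPKM in DSS_ICB mice 1 to 5 and 30.1 to 58.5 FPKM in DSS mice. Endothelial and fibroblast genes (7 each) were highest in DSS_ICB mice 3 and 5 too, at 107 and 90.9 FPKM for the first list and 804 and 814 FPKM for the second. The 7 enteric neuron and glia genes were highest in mouse 3, at 52.9 FPKM. T cell and B cell genes (9) summed to 18.6, 37.7, 97.1, 133 and 151 FPKM in DSS_ICB mice 1 to 5. Their range in DSS mice was 8.08 to 97.2 FPKM. Plasma cell genes (5) summed to 184, 209, 58.7, 160 and 259 FPKM, against 109 to 271 FPKM in DSS mice. Crypt base and cycling epithelium genes (8) summed to 120, 125, 19.9, 100 and 80.3 FPKM, against 75.2 to 109 FPKM in DSS mice. DSS_ICB mouse 4, high for the set, shared the high erythroid sum of mouse 5 but not its neutrophil sum. No neutrophil marker was at 0 in every library and 2 of the 9 were at 0 in some. The part of these cells in the levels of the set was not tested.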

How the data were processed

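Total RNA from colon tissue of 15 mice was sequenced, with 1 library per mouse. The deposited values are FPKM per gene, made by the authors. FastQC, STAR 2.5, Cuffnorm, DESeq and the mm10 build are named per the submitters' processing notes, without their roles. Whether a scaling between libraries was added, and how reads shared with pseudogenes were assigned, is not given in the sources used here. The 55335 Ensembl gene IDs were named with GENCODE M21 (GRCm38), in which 55154 had an entry. The files hold no counts. Low values lay within a relative distance of 0.03 from a whole multiple of 1 read in 41.5 to 49.2% of cases. Whole reads were thus not recovered and depths are estimates.

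Genes with at least 1 FPKM in at least 5 libraries were kept. On log2(FPKM + 1), limma 3.58.1 (R 4.3.3; trend and robust options) was fitted to all 3 groups, each of the 3 comparisons was tested two-sided, and p-values were adjusted by Benjamini-Hochberg over all 14385 genes. A change on this scale understates the change of low genes. Isoform shares were tested by exact permutation, coded in Python 3.11.15 with numpy 2.4.6. Alternatives were another pseudocount (0.1 or 10), no filter or one of 5 FPKM, other scalings, sample quality weights, a fit of the compared groups alone and leaving out mice. Genes named in the text were those with the smallest p in each complex and comparison, the highest and lowest mean levels of each complex, 22 core genes, 6 isoform pairs and untested genes. The subunits Ndufa2 and Atp5e, and the genes from the pathway lists, were picked for the text after their values were seen. The values of 1 tested member are not reported here. The members and lists were chosen with earlier results of these data known. The labels do not say whether mice shared cages or litters, so p-values measure the spread between these mice. Promoters and motif shares came from RefSeq sequences of GRCm38.p6.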

Additional observations from a re-analysis of the deposited data

Results flagged for a closer look

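In each group of 5 mice, the highest or lowest mouse was singled out when its gap to the nearest other mouse was more than 0.71 of the group's range (Dixon's test). This was so in 7 of 84 groups of values examined, and chance flags about 1 in 20 groups.

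Mouse 4 of DSS_ICB_Fp was singled out in 4 of them. Its summed FPKM was 1365 for complex III, against 1115 to 1183 in the other DSS_ICB_Fp mice, and 2659 for complex IV, against 2156 to 2241. Ndufs3, a core subunit of complex I, had 42.9 FPKM in this mouse and 33.5 to 36.0 in the others. Ndufs7, another core subunit, had 37.5 FPKM, against 23.9 to 26.2. The median of all 92 genes was also highest of its group in this mouse, at 0.27 above the DSS mean.

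Ndufs1 had 20.99 FPKM in DSS_ICB_Fp mouse 3 and 16.6 to 17.3 in the others of its group. Atp5c1 was lowest in DSS_ICB_Fp mouse 5, with 166 FPKM against 189 to 193. Ndufv2, a core subunit of complex I, had 74.5 FPKM in DSS mouse 2 and 49.4 to 54.1 in the other DSS mice. No DSS_ICB mouse was singled out in this way. The gap to the nearest mouse tends to be small when 2 mice are low together, as mice 3 and 5 often were. The check therefore cannot show that DSS_ICB holds no outlying mouse.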

How the results depend on the processing

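Over 25 alternative settings, no gene of the set passed in DSS_ICB against DSS or in DSS_ICB_Fp against DSS. In DSS_ICB_Fp against DSS_ICB, 1 gene, Sdha, passed without DSS_ICB mouse 1, where 587 genes (4.10%) passed in all, and leaving out single mice gave 0 to 1. DSS_ICB mice 3 and 5 were the 2 lowest of their group for most of the set, so leaving both out fixed the direction of the shift. The median change of the set was then 0.22 in DSS_ICB against DSS and -0.13 in DSS_ICB_Fp against DSS_ICB, and the cause was not tested. With single mice left out it ran from -0.094 to 0.12 in DSS_ICB against DSS, from -0.035 to 0.21 in DSS_ICB_Fp against DSS_ICB, and from 0.047 to 0.12 in DSS_ICB_Fp against DSS. Sample quality weights gave 0.16 and -0.058 in the comparisons with DSS_ICB. The Cox7a1 share kept its sign in every alternative, from 5.57 to 8.45 percentage points in DSS_ICB_Fp against DSS_ICB. No paired analysis was possible because the mouse numbers follow accession order only. With 5 mice a group, the unadjusted 95% intervals reached 0.22 to 0.87 to either side on the log2 scale (median 0.40), and changes as large as 0.58 (Sdha) and 1.004 (Cox7a1) did not pass.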
